A study of Drosophila melanogaster with 12 samples.

Results

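The testis TAF and testis bromodomain genes are 8 genes of Drosophila melanogaster known for their work in primary spermatocytes, and their RNA was followed through germline-arrested gonads of both sexes. They were chosen by name from a list of spermatocyte genes, by a rule that uses no measured value, and all 8 were found among the 17559 gene IDs of the count files. The 5 testis TAF genes are can, mia, nht, sa and rye, the last of which is named Taf12L in the reference annotation. The 3 testis bromodomain genes are tbrd-1, tbrd-2 and tbrd-3.

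All 12 libraries carry the strain label Bam mutant. The flies were kept at 25 °C and dissected at an age of 1 to 3 days. Each of 4 groups had 3 biological replicates, by the labels. They are called here bam ovaries, bam testes, Sxl RNAi ovaries and mCherry RNAi ovaries, the last 2 from bam females in which RNA interference (RNAi) was aimed at Sxl or at mCherry. Ovaries were from virgin females. Loss of bam, the differentiation factor of germline cysts, is thus shared by every group, controls included. Sxl is the female sex determination gene, and mCherry, a fluorescent protein gene that flies lack, served as the RNAi control. Neither the bam alleles nor the driver that expressed the RNAi is given in the sources used here.

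TAFs are the subunits of TFIID, the complex that brings RNA polymerase II to promoters. The testis TAFs are copies of general subunits that are put to use in primary spermatocytes, where they turn on genes of spermatid differentiation, in part by counteracting Polycomb repression. nht is the copy of Taf4, can of Taf5, mia of Taf6, sa of Taf8 and rye of Taf12, and males that lack one of them arrest before the meiotic divisions. The tBRD proteins bind acetylated histones through bromodomains, and tBRD-1 and tBRD-2 share targets with the testis TAFs. A gonad without bam holds early germ cells that do not go on to the spermatocyte stage.

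Libraries held between 16152230 and 25097969 reads assigned to genes. Levels are in CPM, counts per 1e+06 assigned reads after trimmed mean of M values scaling over all libraries, and are given as mean ± SD with n = 3 where a mean is given. Tissue markers differed by sex. Follicle, yolk and eggshell markers took 0.385% to 0.733% of reads in ovaries, with counts for 8 of 8 genes in each ovary group, and 0.00287% to 0.00351% in testes, with counts for 7 of 8. Muscle markers, 8 of 8 with counts in every group, took 0.686% to 1.70% in ovaries and 0.0914% to 0.103% in testes. Gonadal somatic markers, 7 of 7 with counts in every group, took 0.0817% to 0.140% in ovaries and 0.0235% to 0.0321% in testes. The 7 did not all go one way. By edgeR at an adjusted p under 0.05, 4 were lower and 1 higher in bam testes than in bam ovaries. Of all 9738 genes tested, 16.3% were lower and 16.4% higher. Accessory gland markers took 0.166% of reads in bam testis replicate 2, against 0.0149% and 0.00796% in replicates 1 and 3. Germ cell markers, 4 of 4 with counts in every group, took 0.103% to 0.159% in ovaries and 0.0694% to 0.144% in testes. Of these, zpg was higher in bam testes than in bam ovaries (log2 fold change 0.90, edgeR adjusted p = 0.00204). The other 3 did not pass that threshold, and the median of the 4 was -0.26. Long genes, those of at least 6000 exonic bases, were low relative to their group in bam ovary replicate 3, bam testis replicate 2 and mCherry RNAi replicate 2, with median log2 deviations of -0.48, -0.61 and -0.33, and high in bam testis replicate 3, at 0.55. Fewer cells of a type and less RNA per cell cannot be told apart in such whole-gonad libraries, and the part of these differences in the results below was not tested.

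nht (FBgn0041103, 2L:15317954-15318901 on BDGP6, minus strand, a single exon of 948 bases) was the member with the widest gap between the sexes. It stood at 2.39, 4.45 and 2.83 CPM in the 3 bam testes, from 40, 58 and 54 reads. In the bam ovaries it stood at 0.190, 0.235 and 0.160 CPM, from 4, 4 and 3 reads. Every testis lay far above every ovary, and the ovaries were close to the floor of 3 counts, which equals 0.115 to 0.230 CPM depending on the library. With mCherry RNAi the ovaries gave 0.382, 0.299 and 0.565 CPM of nht. Those with Sxl RNAi gave 0.419, 0.687 and 0.336 CPM. These ovary groups overlapped each other, both lay above all bam ovaries, and none of their libraries passed 17 reads.

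rye (FBgn0031623, 2L:4700835-4701485, minus strand, 591 exonic bases), the Taf12 copy, was the member whose level differed most among the ovaries. Its testis values were 16.9, 11.4 and 30.7 CPM, from 282, 149 and 586 reads, a spread of 2.68-fold among replicates. Bam ovaries gave 2.43, 2.47 and 3.64 CPM, which is below every testis. In mCherry RNAi ovaries rye stood at 0.649, 1.07 and 0.695 CPM, from 17, 25 and 16 reads, and all 3 libraries were below every other library of the series. Sxl RNAi ovaries gave 2.40, 4.57 and 3.47 CPM, so their range covered that of the bam ovaries and stayed above the mCherry RNAi ovaries. In order of mean level, testes were at 19.7 ± 9.93 CPM, Sxl RNAi ovaries at 3.48 ± 1.09, bam ovaries at 2.84 ± 0.686 and mCherry RNAi ovaries at 0.804 ± 0.229, and the second and the third did not differ beyond their spread. rye lies within the span of dcma on the other strand, without exon overlap, and dcma had at most 9 reads in any library.

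mia (FBgn0014342, 3R:5548115-5551168, minus strand, 2590 exonic bases), the Taf6 copy, was well expressed in all 12 libraries. The testes gave 31.3, 30.5 and 31.9 CPM and the bam ovaries 24.1, 22.8 and 24.8 CPM. The 2 groups did not overlap, and the replicates within each lay close together. mCherry RNAi gave 17.5, 16.8 and 21.8 CPM, and Sxl RNAi 19.8, 22.7 and 22.9 CPM, which overlapped each other. By mean the order was 31.3 ± 0.676 CPM in testes, 23.9 ± 0.990 in bam ovaries, 21.8 ± 1.71 in Sxl RNAi ovaries and 18.7 ± 2.71 in mCherry RNAi ovaries. Neighbours among the ovary groups in this order overlapped.

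can (FBgn0011569, 3L:10263909-10267111, minus strand, 2953 exonic bases) and sa (FBgn0002842, 3L:21405425-21406738, minus strand, 956 exonic bases), the copies of Taf5 and Taf8, were near the detection limit. can had 5, 2 and 5 reads in testes and 8, 5 and 5 in bam ovaries, so the groups overlapped at a mean of 0.238 ± 0.0756 and 0.314 ± 0.0592 CPM. Its highest counts were in mCherry RNAi ovaries, with 33, 10 and 19 reads (1.26, 0.427 and 0.825 CPM), above all others in CPM, while Sxl RNAi ovaries had 2, 10 and 2 reads. sa had 0, 0 and 1 read in testes, 2, 1 and 3 in bam ovaries, 11, 4 and 3 with mCherry RNAi, and 4, 2 and 3 with Sxl RNAi. The testes were thus lowest for sa, at counts where a difference was hardly detectable at this depth. sa lies inside rgn, a gene of the other strand that had 613 to 12832 reads per library, also without exon overlap. Like sa, rgn had its lowest counts in testes, at 879, 613 and 1412 reads, and its highest in mCherry RNAi replicate 1. The library kit does not mark strand, so reads of such neighbours cannot be assigned by strand.

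Among the bromodomain genes, tbrd-1 (FBgn0039124, 3R:23891597-23893560, minus strand, 1903 exonic bases) was lower in testes, against its name. It stood at 1.55, 1.54 and 2.46 CPM in testes and at 3.997, 4.76 and 4.12 CPM in bam ovaries. Every testis lay below every bam ovary. mCherry RNAi gave 3.82, 2.65 and 4.26 CPM, and Sxl RNAi 4.37, 3.72 and 2.40 CPM. The RNAi ovaries overlapped each other and the bam ovaries, and the lowest Sxl RNAi library lay just under the highest testis. tbrd-1 overlaps CR46402 on the other strand by 43 exonic bases. CR46402 is not among the gene IDs counted, so its part in the tbrd-1 values was not tested.

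tbrd-2 (FBgn0034423, 2R:19259909-19262294, plus strand, 2332 exonic bases) had 0 reads in all 12 libraries. With a floor of 3 counts over the pooled libraries, this allows a level of up to 0.0126 CPM, and in a single library up to 0.115 to 0.230 CPM. tbrd-3 (FBgn0050417, 2R:23326739-23327581, minus strand, 843 bases), which encodes a binding partner of tBRD-1, was low everywhere and highest in testes. Its counts were 16, 16 and 13 in testes (0.957, 1.23 and 0.681 CPM) and 6, 3 and 2 in bam ovaries (0.285, 0.176 and 0.107 CPM). Both sets of RNAi ovaries stayed at or below 5 reads. Each testis lay above each ovary. The end of tbrd-3 overlaps that of CG9861 on the other strand by 7 exonic bases, and CG9861 was also at its highest counts in testes, with 181, 139 and 257 reads against 68, 42 and 29 in bam ovaries.

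**Figure D1:**
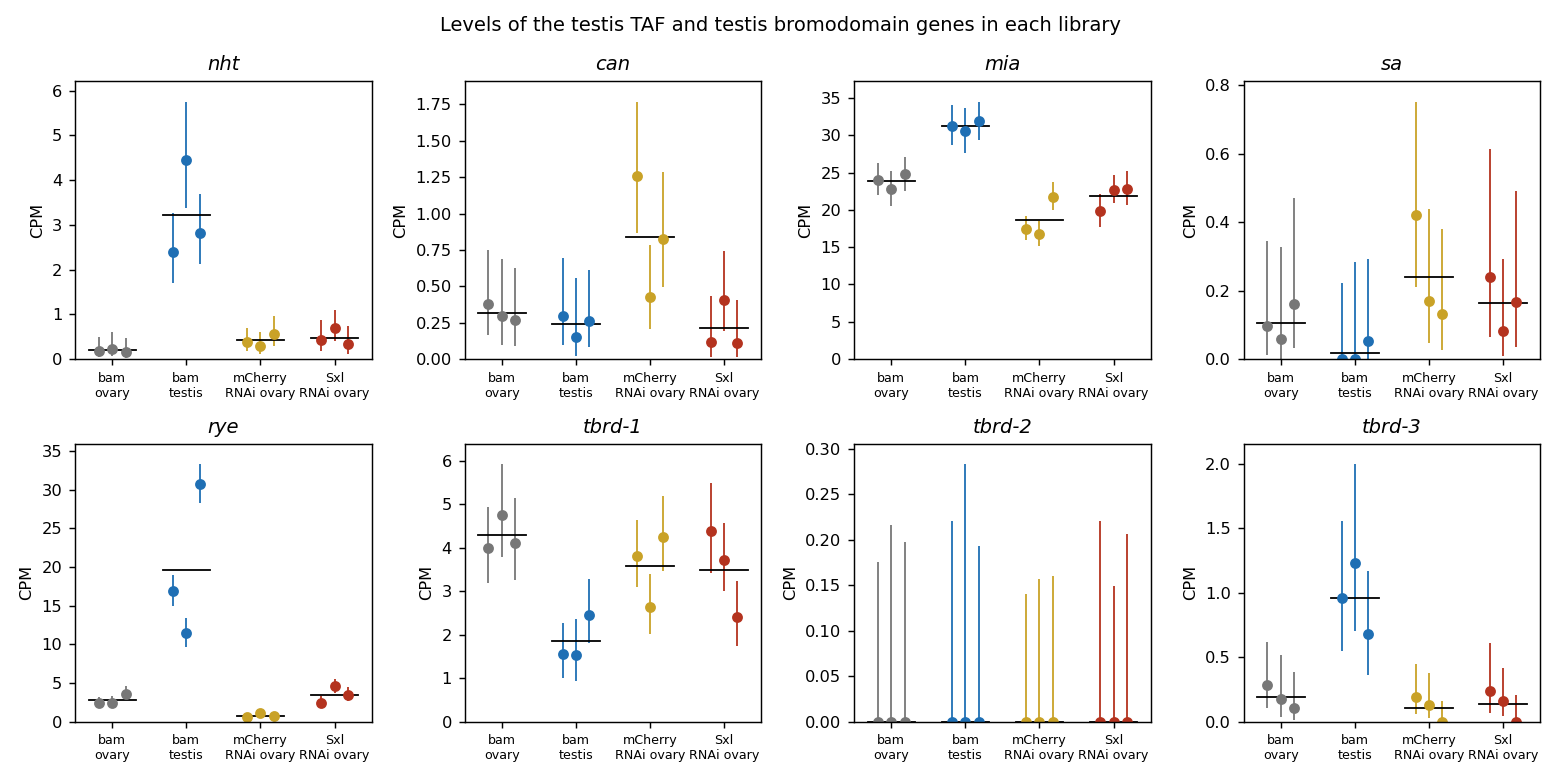
Level in CPM (y axis, linear, from 0, scaled for each gene) of the 8 genes in each of the 12 libraries, grouped on the x axis. Points are libraries, thin bars are 95% intervals of the count (counting error only) and black lines are group means. nht, rye and tbrd-3 were highest in the 3 bam testes, tbrd-1 was lower there than in bam ovaries, and tbrd-2 was at 0 in all 12.

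The first comparison set bam testes against bam ovaries. Of the 8 members, 5 passed the filter on low counts, and all 5 were called at an adjusted p under 0.05, with nht, rye, mia and tbrd-3 higher in testes and tbrd-1 lower. By the same rule 32.7% of the 9738 genes tested were called, 16.4% higher and 16.3% lower. The filter itself bears on this count, since nht and tbrd-3 passed it only through the testes and not in the comparisons of ovaries, which fixed their direction. Adjusted p-values are from edgeR's quasi-likelihood test with Benjamini-Hochberg adjustment over all genes, and exact permutation of 3 libraries against 3 can reach no p below 0.1 for a single gene.

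nht was 15.8-fold higher in testes (log2 fold change 3.98, SE 0.38, adjusted p = 0.000472). rye was 6.99-fold higher (2.81, SE 0.44, adjusted p = 0.00402), and both calls held in each of the 12 alternatives tried. mia was 1.31-fold higher (0.39, SE 0.12, adjusted p = 0.0458). The mia call was narrow. It was lost without bam ovary replicate 1, 2 or 3 (adjusted p = 0.145, 0.176 and 0.0623), without bam testis replicate 1 or 3 (0.133 and 0.0996) and without the filter on low counts (0.0696). tbrd-3 was 4.75-fold higher (2.25, SE 0.45, adjusted p = 0.0103), and without bam ovary replicate 2 its adjusted p was 0.0532. tbrd-1 was 2.29-fold lower in testes (-1.20, SE 0.30, adjusted p = 0.0231). It was no longer called without bam testis replicate 1 (0.0883) or bam ovary replicate 1, 2 or 3 (0.0699, 0.0965 and 0.0535). Of the 3 members left out by the filter, can gave -0.34 (SE 0.54, adjusted p = 0.689) and sa -2.02 (SE 1.15, adjusted p = 0.262) in a fit without it, and tbrd-2 had no reads to fit.

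Gene length moved with the libraries within the testis group. Short genes, those of at most 1500 exonic bases, which include rye and nht, had a median log2 deviation of 0.37 in bam testis replicate 2 and -0.31 in replicate 3. rye stood at 11.4 and 30.7 CPM in these libraries and nht at 4.45 and 2.83 CPM. Replicate 2 also held the most accessory gland RNA. The part of either in the testis values was not tested.

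The second comparison asked whether loss of Sxl in bam ovaries raised these genes. Of the 3 members that passed the filter, rye, mia and tbrd-1, edgeR called 0, among 10059 genes of which 0.209% were called, 0.119% higher and 0.0895% lower. At an unadjusted p under 0.05 the number was 1, rye, which DESeq2 called as well (adjusted p = 0.000113). Of the same 10059 genes, 1172 had an unadjusted p under 0.05, and DESeq2 called 327 where edgeR called 21. rye was 4.38-fold higher in Sxl RNAi than in mCherry RNAi ovaries (log2 fold change 2.13, SE 0.36, adjusted p = 0.0955), with each Sxl RNAi library above each mCherry RNAi library. mia gave 0.24 (SE 0.14, adjusted p = 0.569) and tbrd-1 -0.015 (SE 0.31, adjusted p = 0.990). In a fit without the filter, can gave -1.86 (SE 0.63, adjusted p = 0.399), nht 0.25 (SE 0.48, adjusted p = 0.902), sa -0.60 (SE 0.70, adjusted p = 0.800) and tbrd-3 0.31 (SE 1.10, adjusted p = 0.958).

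The control ovaries differed from each other for rye. Between mCherry RNAi and bam ovaries 1 of 3 members tested was called, rye, 3.55-fold lower in mCherry RNAi ovaries (log2 fold change -1.83, SE 0.32, adjusted p = 0.0223), where 6.11% of 9940 genes were called, 3.78% higher and 2.32% lower. Its call was lost without bam ovary replicate 1, 2 or 3 (adjusted p = 0.0649, 0.0749 and 0.0593) or mCherry RNAi replicate 1 or 3 (0.0998 and 0.0657), with log2 fold changes of -2.10 to -1.60 over the alternatives. Tissue markers moved with this comparison. Fat body markers, 5 of 5 with counts, took 0.108% to 0.122% of reads in bam ovaries, 0.0263% to 0.0462% in mCherry RNAi ovaries and 0.0334% to 0.0488% in Sxl RNAi ovaries, and 1 of 5 was called lower in mCherry RNAi ovaries. Follicle, yolk and eggshell markers took 0.611% to 0.733%, 0.424% to 0.524% and 0.385% to 0.410%, and 3 of 8 were called lower. The fat body marker called lower was Tsf1, at 1078 ± 62.8 CPM in bam ovaries and 194 ± 89.9 in mCherry RNAi ovaries. The median log2 fold change of the 5 fat body markers was 0.28, so that list did not fall as a set. The part of these marker differences in the rye values was not tested. This comparison shares the mCherry RNAi libraries with the second one, so low values there move both. As the values by library show, Sxl RNAi ovaries were within the range of bam ovaries for 1 of their 3 replicates, below it for 1 and above it for 1. mia gave -0.36 (SE 0.13, adjusted p = 0.168) and tbrd-1 -0.27 (SE 0.25, adjusted p = 0.575). The filter left out 5 members. In a fit without it, can gave 1.39 (SE 0.50, adjusted p = 0.172), nht 1.06 (SE 0.50, adjusted p = 0.296), sa 1.16 (SE 0.72, adjusted p = 0.445) and tbrd-3 -0.80 (SE 0.87, adjusted p = 0.641), and tbrd-2 had no reads.

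Whether the sex difference of a member exceeded its difference under Sxl RNAi was tested in one fit to all 12 libraries. Of 5 members tested, 1 was called, nht, among 10382 genes of which 25.6% were called, 11.9% higher and 13.7% lower. The log2 sex difference of nht was larger by 3.77 (SE 0.59, adjusted p = 0.000787), though nht passed the filter only through the testes, which fixed the direction of its sex difference. For rye the 2 differences were 2.81 and 2.13 in their own fits, and the difference between them was 0.68 (SE 0.55, adjusted p = 0.410). mia gave 0.17 (SE 0.17, adjusted p = 0.521) and tbrd-3 1.98 (SE 1.25, adjusted p = 0.281). tbrd-1 gave -1.17 (SE 0.42, adjusted p = 0.0646) and passed the threshold with DESeq2 (0.0324), without bam testis replicate 3 (0.0282) or without Sxl RNAi replicate 3 (0.0381).

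**Figure D2:**
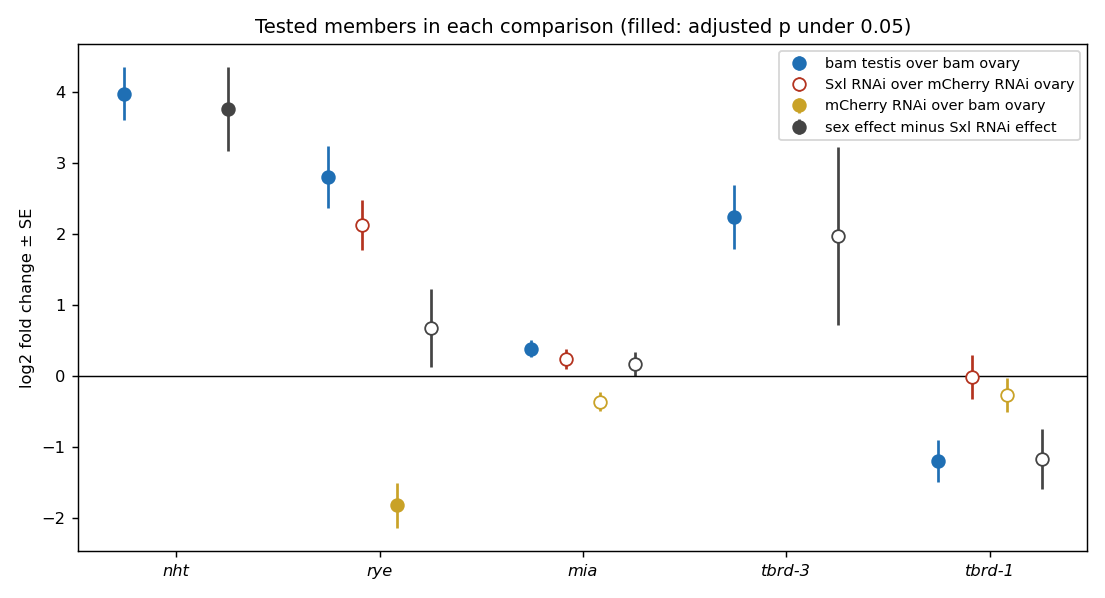
Log2 fold change ± SE (y axis) of the 5 members that passed the filter in at least 1 comparison (x axis), with filled points where the adjusted p was under 0.05. nht stood at 3.98 between the sexes and had no filtered value between ovaries, and rye was above 2 both in testes and under Sxl RNAi and at -1.83 in mCherry RNAi over bam ovaries.

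Set beside the general TFIID subunits they copy, the testis TAFs differed in how far they approached them. Levels were compared per kilobase of exon (CPM per kb), since the genes differ in length. rye reached 34.9%, 66.4% and 117% of Taf12 in the testes, in ascending order, against 9.94% to 13.6% in bam ovaries, 2.28% to 3.79% in mCherry RNAi ovaries and 9.26% to 16.2% in Sxl RNAi ovaries. mia stood at 33.0% to 38.2% of Taf6 in testes, 23.7% to 26.3% in bam ovaries, 15.3% to 22.8% in mCherry RNAi ovaries and 22.3% to 26.9% in Sxl RNAi ovaries. nht stood at 8.55% to 37.7% of Taf4 in testes and at 0.592% to 2.34% in all ovaries. rye in testis replicate 3 was the one case of a copy above its counterpart. can never passed 1.64% of Taf5 and sa never passed 1.20% of Taf8.

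**Figure D3:**
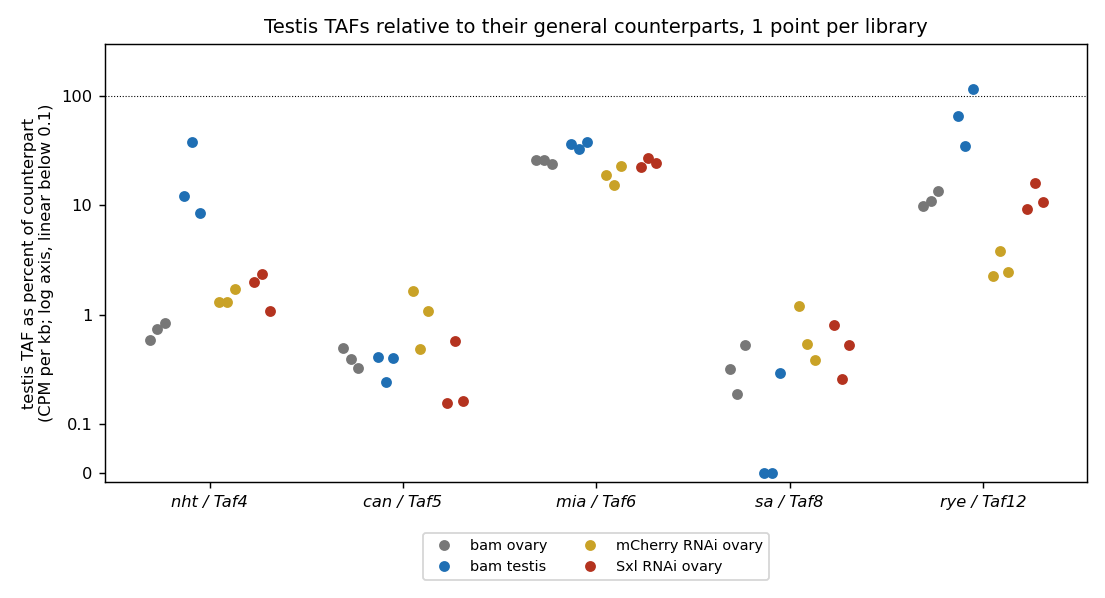
Each testis TAF as a percentage of its general counterpart in CPM per kb (y axis, logarithmic above 0.1 and linear below), with 1 point per library and colours for the 4 groups. rye spanned 2.28% to 117% of Taf12 and was highest in testes, mia stayed between 15.3% and 38.2% of Taf6, and can and sa lay below 1.64% in all libraries.

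Between testes and ovaries, the counterparts of nht, rye and mia moved less than these copies did. Of the 5 counterparts 1 was called, Taf8, where 32.7% of the 9738 genes tested were called. Taf8 was lower in testes, at 26.2 ± 1.70 against 42.8 ± 0.724 CPM (log2 fold change -0.71, SE 0.10, adjusted p = 0.00285). Taf12, the counterpart of rye, gave 0.19 (SE 0.13, adjusted p = 0.332), Taf6 -0.12 (adjusted p = 0.508), Taf5 -0.21 (adjusted p = 0.243) and Taf4 -0.35 (SE 0.42, adjusted p = 0.575). The range of the nht to Taf4 percentage in testes was set on both sides, since Taf4, with 5516 exonic bases, stood at 68.6 to 192 CPM there and was lowest in replicate 2, where nht was highest. Between ovary groups edgeR called 0 of the 5 counterparts in each comparison, as did DESeq2, with 0 also at an unadjusted p under 0.05. Of all genes tested, edgeR called 0.209% under Sxl RNAi and 6.11% between control ovaries. At an unadjusted p under 0.05 there were 1172 of 10059 and 2293 of 9940 genes. fs(1)h, the general bromodomain gene of the BET family to which the tBRD proteins are related, was not called in any comparison (testis over ovary -0.62, SE 0.58, adjusted p = 0.461). The sex difference of Taf8 was larger in size than its difference under Sxl RNAi (-0.59, SE 0.13, adjusted p = 0.00665).

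Summed over the 5 genes, testis TAF RNA came to 35.9 to 67.4 CPM per kb in testes, against 13.4 to 16.1 in bam ovaries, 8.93 to 10.6 with mCherry RNAi and 12.4 to 17.4 with Sxl RNAi. In testes rye made up 53.9% to 77.1% of the sum and mia 18.3% to 32.9%, while in bam ovaries rye made up 29.7% to 38.1% and mia 59.2% to 67.2%. In mCherry RNAi ovaries mia made up 72.7% to 79.4%. nht contributed 4.43% to 13.1% in testes, and can and sa together made up little of any sum, with at most 4.68% for can and 4.82% for sa, both in mCherry RNAi replicate 1. Relative to the sum of the 5 general counterparts, the testis TAFs came to 24.6% to 44.2% in testes and 5.05% to 10.4% in ovaries. Among all genes with a known length, rye ranked at the 76.0 to 91.4 percentile of CPM per kb in testes and at 50.0 to 63.7 in ovaries, nht at 57.1 to 60.1 in testes and mia at 62.5 to 69.6 in all libraries.

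**Figure D4:**
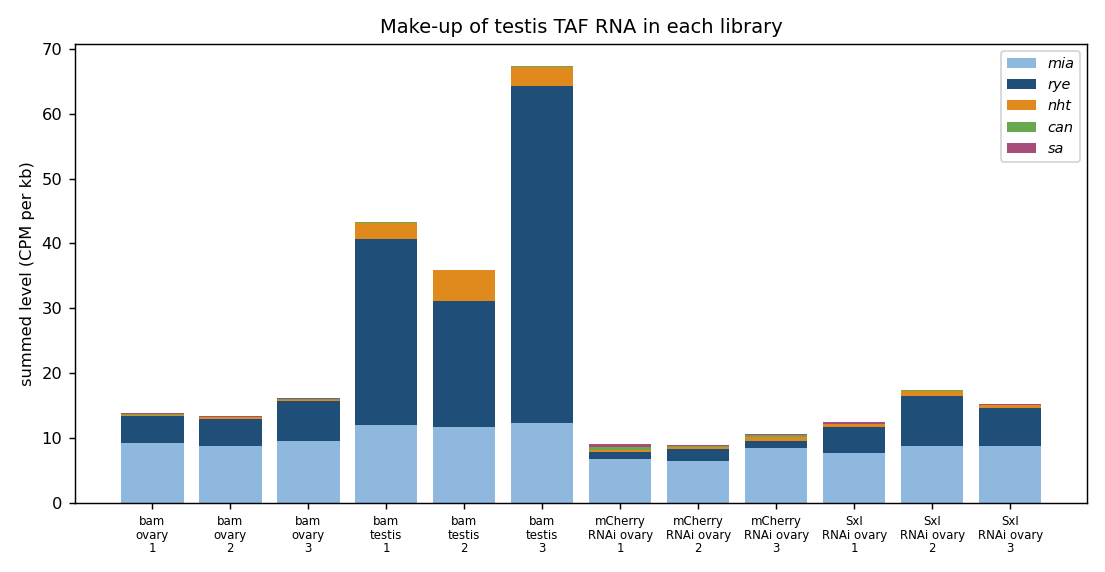
Summed level of the 5 testis TAF genes in CPM per kb (y axis, linear, from 0) in each library (x axis), split by gene. The 3 bam testes reached 35.9 to 67.4, mostly rye, and no ovary passed 17.4, mostly mia.

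Other genes of the pathway were counted from lists by function. Of the 12 other TFIID subunits and TBP relatives, 3 were higher in testes and 0 lower, which is 3 of 12 called where 32.7% of all genes tested were called. These were Trf, a TBP-related factor (0.84, SE 0.14, adjusted p = 0.00460), Taf11 (0.69, SE 0.15, adjusted p = 0.0146) and Taf7 (0.47, SE 0.14, adjusted p = 0.0452). The Taf7 call was lost without any 1 of the 6 libraries (adjusted p up to 0.138), and the Taf11 call without bam testis replicate 1 or either of bam ovary replicates 1 and 2 (up to 0.0719). Of 11 other bromodomain genes, edgeR and DESeq2 called 0 and 0 had an unadjusted p under 0.05, with a median log2 fold change of -0.021. Of the 9 genes of tMAC, the testis meiotic arrest complex that works beside the testis TAFs, 7 were tested and 1, the subunit gene tomb, was higher (1.14, SE 0.31, adjusted p = 0.0317). This call was lost without replicate 1 or 2 of either group (up to 0.115). aly, another tMAC gene, had 249 to 479 reads in every library, whereas comr had at most 1.

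Of 9 other genes of spermatocyte transcription and meiotic arrest, 1 was higher in testes and 1 lower, where 32.7% of all genes tested were called. twe, the meiotic Cdc25 phosphatase, was higher (0.77, SE 0.14, adjusted p = 0.00629). fest, a partner of the translational regulator Rbp4, was lower, with 1, 0 and 0 reads in testes against 14, 10 and 14 in bam ovaries (-4.61, SE 0.73, adjusted p = 0.00415). At these counts fest passed the filter only through the bam ovaries, which fixed its direction. Without bam testis replicate 1, which leaves the testes at 0 reads, the fit gave -6.58, a size that depends on the prior count. In mCherry RNAi over bam ovaries 1 of the 9 was higher and 1 lower, where 6.11% of all genes tested were called. kmg, a zinc finger gene of spermatocytes, was higher (1.93, SE 0.42, adjusted p = 0.0447). Its call was lost without any 1 bam ovary or mCherry RNAi replicate 1 or 2 (up to 0.137). Rbp4 was lower there (-1.55, SE 0.29, adjusted p = 0.0291), a call lost without any 1 of the 6 libraries (up to 0.102).

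Many spermatid differentiation genes and most Y-linked genes of spermatocytes were at or near 0 reads. Of 17 spermatid differentiation genes, 7 had 0 reads in all testes and 9 had no more than 3 reads there in all. In bam, mCherry RNAi and Sxl RNAi ovaries 8, 6 and 5 of the 17 had 0 reads, and 12, 8 and 10 no more than 3. Of the 3 that could be tested, Mst87F, a sperm tail protein gene, was higher in testes with 19, 26 and 34 reads against 0, 2 and 0 (5.25, SE 0.81, adjusted p = 0.00379). With so few ovary reads, Mst87F passed the filter on low counts only through the testes, which fixed its direction. Without bam ovary replicate 2, which leaves the ovaries at 0 reads, the fit gave 7.85, which likewise depends on the prior count. Mst36Fb was higher as well (1.48, SE 0.45, adjusted p = 0.0463), a call lost without any 1 bam ovary or bam testis replicate 2 or 3 (up to 0.156). Of 11 Y-linked genes of spermatocytes, 5 had 0 reads in testes and 9 no more than 3. Only FDY could be tested (9.03, SE 0.47, adjusted p = 7.56e-05). It had 1016, 917 and 883 reads in testes and at most 3 in any ovary. FDY thus passed the filter on low counts only through the testes, which fixed the direction of this call. In the early male germline list, 3 of 5 tested were higher in testes, namely CG15930 (4.12), Phf7 (2.06) and tut (1.32). Of all 9738 genes tested in this comparison, 16.4% were higher. Under Sxl RNAi edgeR called 0 of the other TFIID, other bromodomain, tMAC, other spermatocyte and spermatid genes. At an unadjusted p under 0.05 these lists had 0, 1, 2, 2 and 0 genes, and with DESeq2 0, 0, 1, 1 and 0 were called. The numbers tested were 12, 11, 8, 9 and 3. Of all 10059 genes tested, edgeR called 0.209%, 1172 had an unadjusted p under 0.05 and DESeq2 called 327. Among the 5 early male germline genes tested, CG15930 was the one called by edgeR (4.11). At an unadjusted p under 0.05 that list had 3 genes, and DESeq2 called 2.

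Across the 12 libraries the members with at least 1 CPM in a group fell into opposed patterns, given here as a description over libraries that share groups and depth. Pearson correlations of log2 CPM were 0.90 for mia with rye, 0.79 for nht with rye and 0.76 for mia with nht. tbrd-1 ran the other way, at -0.79 with nht, -0.66 with rye and -0.58 with mia. Among 8265 other genes, those most like nht were fan (0.98), asRNA:CR44237 (0.98) and CG15056 (0.98). fan, which rose from 2.39 CPM in bam ovaries to 21.0 CPM in testes by group mean, is itself known for a role in male fertility. Those most like rye were PpD3 (0.96), Gem4b (0.95) and LeuRS-m (0.95). Gem4b, a paralog of a subunit of the SMN complex, stood at 6.36 CPM in testes, 1.63 in bam ovaries, 0.175 in mCherry RNAi ovaries and 1.38 in Sxl RNAi ovaries. Those most like mia were AIF (0.97), CG32344 (0.96) and not (0.96), and those most like tbrd-1 were Slmap (0.94), niki (0.93) and CG1492 (0.93). By Spearman correlation some of these ranked lower among the 8265 genes, with AIF at rank 265 for mia, asRNA:CR44237 and CG15056 at 192 and 119 for nht, and Gem4b at 179 for rye, while LeuRS-m was at rank 1 for rye.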

How the data were processed

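Per the labels' protocols, 200 ng of RNA per library went into Illumina's TruSeq RNA kit v2, an unstranded kit for polyadenylated RNA. The authors deposited raw counts per gene, in whole reads. The submitters' processing notes name HTSeq 0.9.1 for counting, TopHat2 2.1.1 with Bowtie2 2.2.9, FastQC and DESeq, with BDGP6 as the build. No source used here gives the counting settings or the annotation release. The 5 HTSeq summary lines, 12.0% to 17.1% of reads per library, were left out.

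A symbol was found for 17253 of the 17559 gene IDs, and 133 of 139 list entries were found. Positions and exonic lengths came from an Ensembl annotation of the same build, possibly of another release. Replicates within a group differed beyond counting noise (chi-square per degree of freedom at least 9.98). The 3 comparisons were each fitted to the 6 libraries concerned, and the difference between effects to all 12, with edgeR 4.0.16 in R 4.3.3 (robust quasi-likelihood F test after filterByExpr, trimmed mean of M values scaling, Benjamini-Hochberg adjusted p under 0.05). Correlations used log2 of CPM plus 0.5. Counting intervals are exact at 95% and, like the floor of 3 counts, cover counting error only. Alternatives were DESeq2 1.42.0, relative log expression scaling, a single fit to all 12 libraries, a minimum of 1 CPM in 3 libraries or no filter, a block for the replicate number, and the omission of each replicate in turn.

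The rule for named genes took all members, their general counterparts and fs(1)h, overlapping genes, of each list the called genes of smallest p (at most 4), and the 3 genes most like each member by Pearson correlation, among genes of at least 5 CPM in a group. Members, lists and tests were chosen with earlier results of these data known. The scripts were tested on simulated counts.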

Additional observations from a re-analysis of the deposited data

Results flagged for a closer look

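Whether the sex effect and the Sxl RNAi effect differed was itself tested for each member and counterpart that passed the filter. It passed the threshold for nht, whose sex difference was larger by 3.77 on the log2 scale, and for the general subunit gene Taf8, with -0.59. The nht value lay between 3.46 and 4.13 over 17 alternatives and was called in all 17. nht passed the filter on low counts only through the testes, which fixed the direction of its sex difference, so these calls are no independent support for that direction.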

How the results depend on the processing

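The replicate numbers of the titles gave no clear pairing of the libraries. Same-numbered libraries had correlations of their deviations of -0.71 to 0.11 between testes and ovaries. The values were -0.41 to 0.097 between RNAi ovaries and -0.49 to 0.52 between control ovaries. Differently numbered libraries reached 0.66, 0.35 and 0.66 in these comparisons. Such correlations cannot tell whether same-numbered libraries shared a batch. With the replicate number as a block, members called fell from 5 to 3 between the sexes and from 1 to 0 between control ovaries, and genes called fell from 3186 to 1696, from 21 to 3 and from 607 to 93. With DESeq2, 1 member was called under Sxl RNAi where edgeR called 0, and 2 where edgeR called 1 in the test of the difference between effects. Genes called with DESeq2 were 327 in place of 21 and 1262 in place of 607. For Sxl RNAi they were 39 without the filter and 43 with all 12 libraries in one fit. Leaving out 1 replicate gave 2 to 5 members and 1924 to 3539 genes between the sexes, 3 to 23 genes under Sxl RNAi, 0 to 1 members and 153 to 388 genes between control ovaries, and 1 to 2 members for the difference between effects.

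Values that changed sign when a replicate was left out were all uncalled. Under Sxl RNAi they were tbrd-1 (-0.20 to 0.19), Taf4 (-0.17 to 0.12) and Taf12 (-0.047 to 0.11). Between control ovaries they were Taf5 (-0.042 to 0.085), Taf6 (-0.028 to 0.15) and Taf4 (-0.18 to 0.14), and for the difference between effects Taf6 (-0.038 to 0.10). Over all members, 189 of 215 alternative values kept their direction and side of the threshold, 19 lost the call, 4 gained it and 3 changed sign. Under the block the adjusted p of mia, tbrd-1 and of rye between control ovaries rose to 0.196, 0.0884 and 0.105, and the calls of Taf7 (0.186), Taf11 (0.0936), tomb (0.0884), Mst36Fb (0.163), twe (0.0602), Rbp4 (0.131) and kmg (0.105) were lost too. The causes of these changes were not tested. Many counts of members lay near the floor of 3. sa had 0 to 1 reads in testes, 1 to 3 in bam ovaries and 2 to 4 in Sxl RNAi ovaries. In mCherry RNAi replicates 2 and 3 it had 4 and 3. tbrd-3 had 2 to 6 reads in bam ovaries, 0 to 5 with mCherry RNAi and 0 to 4 with Sxl RNAi. nht had 3 to 4 in bam ovaries. can had 2 to 5 in testes, 5 to 8 in bam ovaries and 2 in Sxl RNAi replicates 1 and 3. tbrd-2 had 0 throughout.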

Other observations

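A few genes of the members and of the spermatocyte and spermatid lists shared a library, a pattern chosen after their values were seen. can, sa, kmg and the spermatid gene fzo all had their highest count in mCherry RNAi ovary replicate 1, with 33, 11, 156 and 15 reads. In replicates 2 and 3 of the same group can had 10 and 19 reads, sa 4 and 3, kmg 94 and 48, and fzo 2 and 6. This library was the deepest of the series, with 25097969 assigned reads, and in CPM it was also the highest for can (1.26) and sa (0.420). The spread lies within 1 group of 3 libraries, and its origin was not tested.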
